A study of Mus musculus with 5 samples.

Results

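Cadherins are calcium-dependent adhesion proteins that hold neighbouring cells together, and 10 of their genes, Cdh1, Cdh2, Cdh3, Cdh4, Cdh5, Cdh6, Cdh10, Cdh11, Cdh13 and Cdh15, were followed here out of 25414 genes. They were picked by symbol as classical (type I) cadherins, type II cadherins and the atypical Cdh13. The RNA came from 2 samples of mouse neural stem cells (NSC) and 3 samples of STO cells. NSC were primary cells from embryonic cortex, 5 to 8 passages old, grown as a monolayer on poly-ornithine and laminin with EGF, bFGF, heparin and B27. STO is an established SIM mouse embryonic fibroblast line, resistant to thioguanine and ouabain, used past 30 passages and kept in DMEM with serum; the labels give the strain of both as C57BL/6. Values are FPKM, fragment counts scaled to transcript length and to the mapped fragments of the library, summed over the transcripts of each gene.

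The extracellular repeats of a classical cadherin bind cadherins on the next cell, mostly of the same kind. Its cytoplasmic tail binds p120-catenin near the membrane and β-catenin or plakoglobin further along, and α-catenin links these to actin. N-cadherin is the classical cadherin best known from neural progenitors and from fibroblasts, E-cadherin is that of epithelia, and type II cadherins are known for sorting neurons and mesenchymal cells.

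Both labels went with the summed levels of their markers. All 7 neural stem cell markers, among them Sox2, Nes and Pax6, were lower in STO, where their summed level was 0.0442 to 0.0724 FPKM against 3825 to 4041 FPKM in NSC. Most of the NSC sum was Fabp7, at 2783 and 3041 FPKM. All 7 fibroblast markers, among them Col1a1, Col3a1 and Pdgfrb, were higher in STO, at 1696 to 1816 FPKM in sum against 35.2 to 35.5 FPKM. Pdgfra, at 30.45 and 30.06 FPKM, made up most of this sum in NSC. The test took genes with a mean of at least 1 FPKM in either cell type. All 7 neural stem cell markers entered it only through NSC and 5 of the 7 fibroblast markers only through STO. This filter therefore fixed their direction. Over all genes tested, 43.7% were lower and 41.9% higher in STO. Markers of other neural cells were also measured in NSC, at 176 to 178.5 FPKM in sum for astrocytes, 115 FPKM for neurons and 120 to 122 FPKM for oligodendrocytes, against at most 0.412, 12.8 and 1.14 FPKM in STO. Aldoc, Map2 and Mbp made up most of these sums, Rbfox3 and Mog were under 1 FPKM, and Tubb3 overlapped between the cell types. The part of such cells in the cadherin values was not tested. The widths of the deposited intervals corresponded to 15223341 to 22271895 fragments a sample. A listed 0 is not proof of silence, since the ribosomal protein gene Rps27 was listed at 0 in all 5 samples and Rpl30 in both NSC samples.

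NSC carried a mixture of cadherins led by Cdh13, Cdh2 and Cdh4, and STO carried mainly Cdh11. The 10 genes summed to 185 and 182 FPKM in the NSC samples and to 72.7, 76.6 and 75.5 FPKM in the STO samples, 183.6 ± 2.33 (SD, n = 2) against 74.9 ± 2.01 (SD, n = 3). Cdh13 made up 45.2% ± 1.91 of the sum in NSC, followed by Cdh2 with 24.1% ± 0.0707 and Cdh4 with 18.9% ± 1.2. In STO, Cdh11 made up 66.2% ± 0.954, Cdh2 20.3% ± 1.1 and Cdh13 13.1% ± 0.551. Among these 10 genes, type I cadherins thus held 43.1% ± 1.2 of the sum in NSC and 20.6% ± 1.1 in STO. Type II cadherins among the 10 held 11.7% ± 0.707 and 66.3% ± 0.924. The shares are not those of all cadherins, since the type II genes Cdh20 and Cdh22 lie outside the 10. Their means were 26.42 and 25.65 FPKM in NSC, and both were listed at 0 in STO. Of the 5 cadherins outside the 10 that were tested, 3 were lower and 2 higher in STO. FPKM is relative to each library, and in bulk RNA a lower share of cells and less RNA in each cell cannot be told apart.

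**Figure D1:**
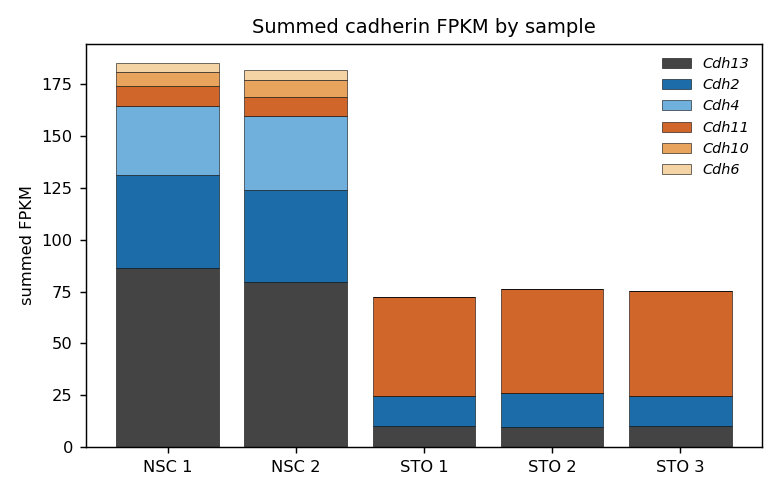
Summed FPKM of 6 cadherins (vertical axis) in each of the 2 NSC and 3 STO samples (horizontal axis), stacked by gene; the other 4 cadherins were under 1 FPKM in every sample and are not drawn. Cdh13, Cdh2 and Cdh4 fill most of the NSC bars, near 183 FPKM, and Cdh11 fills most of the STO bars, near 75 FPKM.

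Within NSC the order of levels was Cdh13, Cdh2, Cdh4, Cdh11, Cdh10, Cdh6 and Cdh15, and no neighbours in that order had overlapping samples, while Cdh1, Cdh3 and Cdh5 were all listed at 0. Within STO the order was Cdh11, Cdh2, Cdh13, Cdh1 and Cdh5, again with no overlap, and from Cdh3 down to Cdh15, Cdh4, Cdh6 and Cdh10 each gene's samples overlapped those of the next.

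The comparison of STO with NSC was tested for the 6 cadherins that reached a mean of 1 FPKM in either cell type, within a fit over 12292 genes (limma on log2(FPKM + 1), Benjamini-Hochberg adjusted p under 0.05). Of these 6, 1 was higher in STO and 5 were lower. Among all genes tested, 85.6% passed the test, 41.9% as higher and 43.7% as lower in STO, so passing it set no cadherin apart. All 6 also differed by at least 1 on the log2 scale, where 17.1% of all genes did as higher and 21.3% as lower. The samples of NSC and STO did not overlap for any of the 6, nor for 89.9% of the genes tested. The median difference of the 6 was -2.73 on the log2(FPKM + 1) scale beside -0.02 over all genes tested, but Cdh4, Cdh6 and Cdh10 entered only through their level in NSC and therefore had to differ. Nothing says that the samples of a group came from separate cultures, so the p-values measure the spread between these samples.

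**Figure D2:**
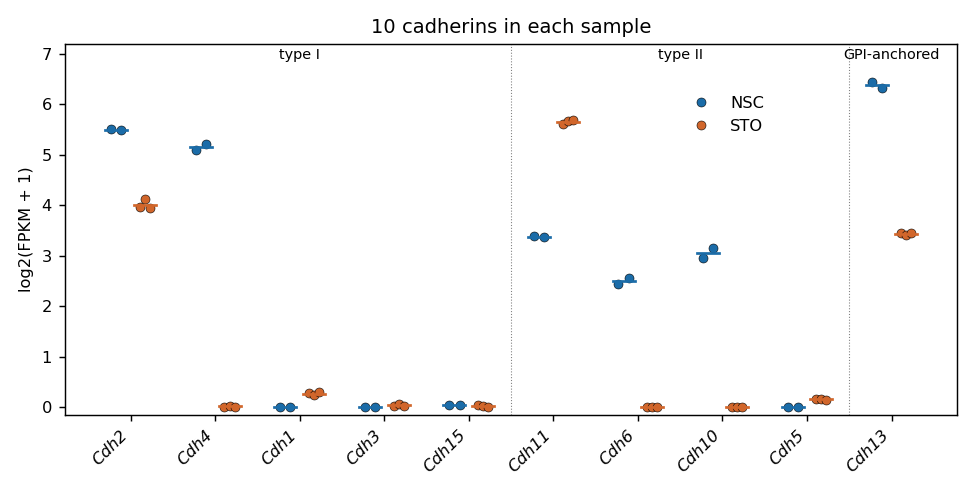
Level of each of the 10 cadherins as log2(FPKM + 1) (vertical axis) in 2 NSC samples (blue) and 3 STO samples (orange); each point is a sample and each bar the mean of its group. Cdh11 is the cadherin that stands clearly higher in STO, Cdh2, Cdh4, Cdh6, Cdh10 and Cdh13 stand higher in NSC, and Cdh1, Cdh3, Cdh5 and Cdh15 lie near 0 in both.

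Cdh2 encodes N-cadherin, which joins neural progenitors at the ventricular surface and is also the usual classical cadherin of fibroblasts. Its transcript NM_007664 (mm9 chromosome 18, 16747386 to 16967755) was at 44.7 and 43.9 FPKM in NSC and at 14.7, 16.4 and 14.5 FPKM in STO. Both cell types therefore expressed it, with NSC 2.92-fold higher in the mean and no overlap. The difference was -1.49 ± 0.067 on the log2(FPKM + 1) scale (STO minus NSC, SE; adjusted p = 2.2e-06), a size that 24.2% of the genes tested reached. Within STO, replicate 2 stood above the others, with an authors' interval of 15.6 to 17.1 FPKM that did not reach the 13.9 to 15.4 FPKM of replicate 1.

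Cdh4 encodes R-cadherin, a type I cadherin first described in retina. It was at 33.5 and 35.9 FPKM in NSC and at 0.00694, 0.0182 and 0 FPKM in STO. It was the third cadherin in NSC, below Cdh2. The authors' intervals of the STO values reached 0 in each sample, with upper bounds of 0.0267, 0.0431 and 0 FPKM. The difference was -5.15 ± 0.054 on the log2(FPKM + 1) scale (adjusted p = 5.8e-09), and 1.9% of the genes tested differed by as much. The whole signal in NSC was assigned to NM_009867 (chromosome 2, 179177136 to 179634080), and the shorter NM_001316723 was listed at 0 in all 5 samples.

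Cdh11 was the cadherin of the 10 that passed the test as higher in STO. It encodes the type II OB-cadherin, known from osteoblasts and mesenchymal cells. Its transcript NM_009866 (chromosome 8, 105155995 to 105309011) was at 9.43 and 9.35 FPKM in NSC and at 47.7, 50.3 and 50.8 FPKM in STO. Every STO sample lay above both NSC samples, 5.28-fold in the mean, yet NSC were not without it. The difference was 2.28 ± 0.052 on the log2(FPKM + 1) scale (adjusted p = 8.8e-08).

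Cdh6, which encodes K-cadherin, named for kidney and also known to mark compartments of the developing forebrain, was at 4.45 and 4.93 FPKM in NSC and at 0.00543, 0 and 0 FPKM in STO. The STO 1 value rested on 1 fragment. The log2(FPKM + 1) difference was -2.50 ± 0.052 (adjusted p = 5.9e-08). Cdh10, another type II cadherin of brain, was at 6.78 and 7.93 FPKM in NSC and was listed at 0 in all 3 STO samples, so that no fold is given (adjusted p = 7.7e-08). Cdh6 and Cdh10 were therefore present in both NSC samples at modest levels and at or near 0 in each STO sample.

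Cdh6 (12958454 to 13103430) and Cdh10 (18748702 to 18943991) lie on chromosome 15. Cdh10 has 2 transcripts in the files that start 1382 bases apart. NM_001316758, which starts further upstream, carried 90.4% and 100% of the Cdh10 level in the NSC samples, at 6.13 and 7.93 FPKM. NM_009865 was at 0.654 FPKM in NSC 1 and listed at 0 in NSC 2. How fragments were divided between the overlapping transcripts was an estimate by the authors' software.

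Promoter sequences from RefSeq (GRCm38.p6) were matched for 3 of the 10 genes, Cdh6, Cdh10 and Cdh15; Cdh1, Cdh2, Cdh3, Cdh4, Cdh5, Cdh11 and Cdh13 had no entry. The 250 bases before the start are shown for Cdh6 and Cdh10, which differed between the cell types and had an entry; the Cdh15 window lies in an exon of a GENCODE transcript and is not shown. Each is written 5′ to 3′ on the strand of its gene, with every E-box (CANNTG, the same on both strands) in capitals. The Cdh6 sequence is chr15:13173676-13173925 on the minus strand, which matched mm9 exactly once and ends at the start of the deposited transcript. The Cdh10 sequence is chr15:18820079-18820328 on the plus strand and ends at the start of NM_009865, the minor transcript; in the GENCODE annotation of mm9 it lies in an intron of the longer one.
Cdh6: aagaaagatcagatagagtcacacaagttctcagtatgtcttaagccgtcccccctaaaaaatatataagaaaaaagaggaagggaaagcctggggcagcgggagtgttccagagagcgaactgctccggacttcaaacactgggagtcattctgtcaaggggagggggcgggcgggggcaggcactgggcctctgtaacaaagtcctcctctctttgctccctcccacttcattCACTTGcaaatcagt
Cdh10: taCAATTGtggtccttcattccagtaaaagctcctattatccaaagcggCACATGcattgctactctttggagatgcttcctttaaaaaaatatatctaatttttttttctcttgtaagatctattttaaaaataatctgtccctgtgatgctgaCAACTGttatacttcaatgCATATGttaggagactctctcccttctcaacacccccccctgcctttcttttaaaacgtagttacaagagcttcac

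The Cdh6 window held 1 E-box and the Cdh10 window 4, and 66.2% of the 32851 promoters of the same length in the table held at least 1. Neither held the E2-box, CAGGTG or CACCTG on the other strand, which is itself an E-box and stood in 17.2% of all promoters. The SOX or TCF motif ACAAAG, read as CTTTGT on the other strand, stood once in the Cdh6 window, not in that of Cdh10, and in 16.5% of all promoters. Cdh6 had 51.2% G or C and Cdh10 36.8%, beside a median of 52.4%. These matches describe the letters of the windows and are not binding sites.

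Cdh13 encodes T-cadherin, which is held in the membrane by a GPI anchor, lacks the cytoplasmic tail that binds catenins, and binds adiponectin. Its transcript NM_019707 (chromosome 8, 120807511 to 121848827) was at 86.4 and 79.8 FPKM in NSC and at 9.91, 9.59 and 9.88 FPKM in STO. It was the most abundant of the 10 cadherins in both NSC samples, 8.48-fold above STO in the mean, with no overlap. The difference was -2.96 ± 0.056 on the log2(FPKM + 1) scale (adjusted p = 4e-08).

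**Figure D3:**
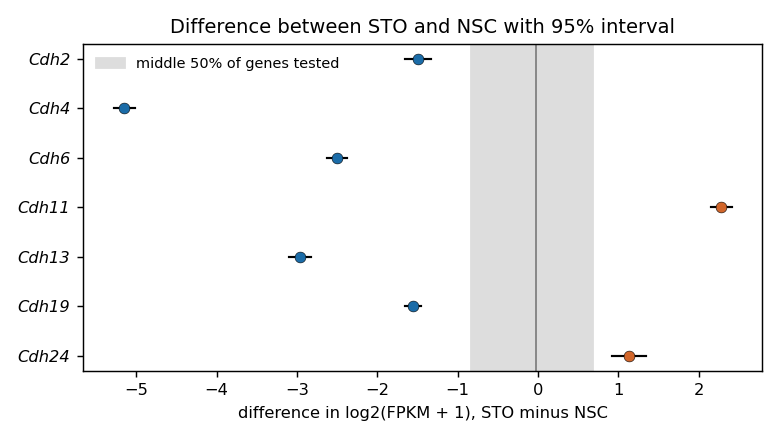
Difference in log2(FPKM + 1), STO minus NSC (horizontal axis), for 5 of the 10 cadherins and for Cdh19 and Cdh24; points are estimates, lines 95% intervals, and the grey band holds the middle 50% of all genes tested, from -0.83 to 0.68. Genes with a group listed wholly at 0 are not drawn; all 7 lie outside the band, Cdh11 and Cdh24 to the right and the others to the left.

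The other 4 cadherins did not reach 1 FPKM in either cell type. Cdh1 encodes E-cadherin, the adhesion protein of epithelia. It was listed at 0 in both NSC samples and was at 0.210, 0.175 and 0.223 FPKM in STO, from 21, 20 and 33.4 fragments, with authors' 95% intervals from 0.0965 to 0.302 FPKM over the 3 samples. The signal was low but present in every STO sample. The 13 epithelial genes listed, Cdh1 among them, summed to 0.341 to 0.375 FPKM in NSC and 0.491 to 0.687 FPKM in STO, and none reached the filter. When no filter on low values was used, Cdh1 (adjusted p = 0.0016) and Cdh5 (adjusted p = 5.5e-05) passed as higher in STO, which raised the count from 1 to 3 of 10, and in that fit 21.3% of all 25414 genes passed as higher and 24.2% as lower. Both were listed at 0 in NSC and could not come out as lower. For Cdh5 the STO values had an SD of 0.00364 FPKM, while the authors' intervals ran from 0.0394 to 0.184 FPKM. Its adjusted p therefore rests on a spread smaller than the counting error.

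Cdh5 encodes VE-cadherin, the cadherin of endothelial junctions. It was listed at 0 in NSC and was at 0.111, 0.116 and 0.109 FPKM in STO, from 9.6, 11.9 and 14.7 fragments. The 6 endothelial markers summed to 0.618 to 0.629 FPKM in NSC and 0.277 to 0.523 FPKM in STO, and they did not move together. Tek was higher in STO, at 0.207, 0.339 and 0.256 FPKM against 0.00699 and 0.00638 FPKM in NSC, while Kdr, which made up most of the NSC sum, was lower, at most 0.0497 FPKM in STO against 0.461 and 0.394 FPKM. Tie1 and Cldn5 were listed at 0 in each STO sample, and the part of these markers in the Cdh5 level was not tested. The overlapping gene Gm29682 was listed at 0 throughout.

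Cdh3, for P-cadherin of placenta and basal epithelia, was listed at 0 in NSC and was at 0.011, 0.0479 and 0.0216 FPKM in STO. Its 2 transcripts shared that signal almost equally, each at a mean of 0.0134 FPKM, and the authors' intervals of both reached 0 in every STO sample. Cdh15, for M-cadherin of skeletal muscle and its satellite cells, was at 0.0336 and 0.0306 FPKM in NSC and at 0.0312, 0.0136 and 0 FPKM in STO. These values rested on 3, 3, 1.99, 1 and 0 fragments, and the samples overlapped. A difference was not detectable at this depth for either gene without the filter (Cdh3 adjusted p = 0.21, Cdh15 adjusted p = 0.34, limma). The 6 skeletal muscle markers summed to at most 0.583 FPKM in any sample, and Myf5 was listed at 0 in all 5.

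**Figure D4:**
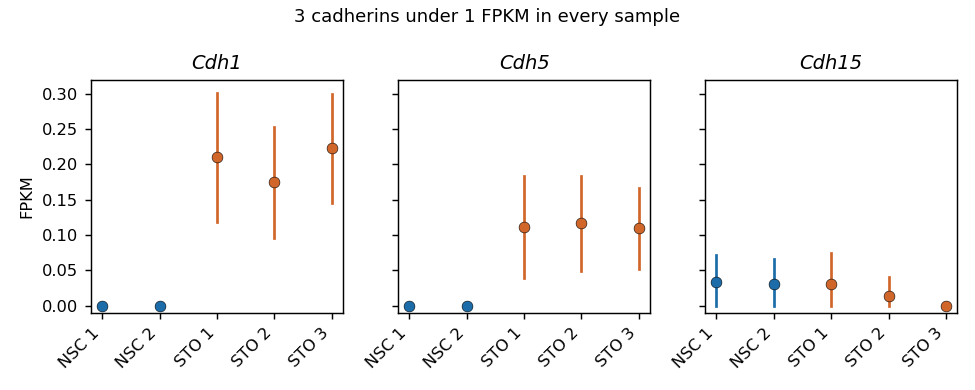
FPKM (vertical axis) of Cdh1, Cdh5 and Cdh15 in each NSC (blue) and STO (orange) sample, with the authors' 95% interval as a line. Cdh1 and Cdh5 lie above 0 in the 3 STO samples and are listed at 0 in both NSC samples, and the Cdh15 intervals reach 0 in every sample.

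Of the 10 genes, 6 lie on chromosome 8, in the order Cdh11, Cdh5, Cdh3, Cdh1, Cdh13 and Cdh15. Cdh3 and Cdh1 are 46.4 kb apart, and the other gaps run from 1.32 to 11.6 Mb. Along this chromosome Cdh11 rose in STO and Cdh13 fell, while the 4 others stayed under 1 FPKM in both cell types.

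Another 13 cadherins outside the 10 were also examined, of which 5 reached the filter, 2 higher and 3 lower in STO, and 4 were listed at 0 in all 5 samples. The direction of 4 of the 5 was fixed by the filter, since Cdh19, Cdh20 and Cdh22 entered only through NSC and Cdh26 only through STO. Among all genes tested, 85.6% passed the test, 41.9% as higher and 43.7% as lower in STO. The type II genes Cdh20 and Cdh22 were at 27.6 and 25.2 FPKM and at 25.1 and 26.2 FPKM in NSC, and both were listed at 0 in every STO sample (adjusted p = 7.8e-09 and 5.7e-09). Cdh19, known from the Schwann cell lineage, was at 2.01 and 1.99 FPKM in NSC and at no more than 0.0321 FPKM in STO (-1.56 ± 0.04, adjusted p = 1.5e-07). Cdh24 rose with Cdh11, from 1.57 and 1.65 FPKM in NSC to 5.31, 4.25 and 4.60 FPKM in STO (1.13 ± 0.086, adjusted p = 2.9e-05). Cdh26 was listed at 0 in NSC and was at 2.95, 2.27 and 2.10 FPKM in STO (adjusted p = 8.3e-06).

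The catenins and other cytoplasmic partners of cadherins moved in both directions: of 14 tested out of 15, 10 were higher and 3 lower in STO, with a median log2(FPKM + 1) difference of 0.54. Over all genes tested, 41.9% were higher and 43.7% lower. Ctnnd2 entered the test only through NSC and Ablim1 only through STO, so the filter fixed their direction. Ctnnb1, for β-catenin, was at 255 and 262 FPKM in NSC and at 238, 235 and 241 FPKM in STO, a difference of -0.12 (95% interval -0.25 to 0.02, adjusted p = 0.085) that turned positive when each sample was rescaled to the same total FPKM or quantile normalized. It passed as lower in STO with no filter (adjusted p = 0.038), with samples set to the same upper quartile (adjusted p = 0.049), without NSC replicate 1 (adjusted p = 0.048), and for its most abundant transcript alone (-0.38, adjusted p = 0.0051). Jup, for plakoglobin, which can take its place in the complex, was higher in STO by 0.58 ± 0.056 on the same scale (adjusted p = 9.5e-05).

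Ctnna1 and Ctnna2, the genes of α-catenins, went in opposite directions. Ctnna1, for αE-catenin, was at 37.0 and 39.7 FPKM in NSC and at 81.7, 87.3 and 90.5 FPKM in STO (1.15 ± 0.065, adjusted p = 6.9e-06). Ctnna2, for αN-catenin, was at 14.1 and 12.3 FPKM in NSC and at 0.891, 1.27 and 1.26 FPKM in STO (-2.73 ± 0.1, adjusted p = 9.8e-07). Neither pair of groups overlapped.

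Ctnnd1, for p120-catenin, was at 40.0 and 35.5 FPKM in NSC and at 58.5, 61.6 and 57.8 FPKM in STO (0.64 ± 0.069, adjusted p = 0.00016), although its most abundant transcript taken alone went the other way (-0.70, adjusted p = 0.0013). Ctnnd2, for the neural δ-catenin, was at 35.3 and 39.1 FPKM in NSC and at 0.336, 0.269 and 0.248 FPKM in STO (-4.89 ± 0.067, adjusted p = 1.2e-08). Arvcf, of the same family, was at 16.0 and 21.2 FPKM in NSC and at 4.42, 0 and 0 FPKM in STO (adjusted p = 0.0048). The call of Arvcf was lost without NSC replicate 1 (adjusted p = 0.08), without NSC replicate 2 (adjusted p = 0.1) and with no filter (adjusted p = 0.059).

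The 3 largest increases on this list were those of Ajuba, Vcl and Lima1. Ajuba rose from 1.30 and 1.08 FPKM in NSC to 30.2, 28.0 and 28.4 FPKM in STO (3.77 ± 0.068, adjusted p = 3.2e-08). Vcl, for vinculin, rose 4.84-fold in the mean FPKM (adjusted p = 7e-07), and Lima1, for the actin-binding protein EPLIN, rose 4.5-fold (adjusted p = 9.6e-07).

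Nectins and nectin-like proteins, which start contacts that cadherins then strengthen, were tested for 8 genes, of which 7 were lower and 1 higher in STO, with a median of -1.70, where 43.7% of all genes were lower. Cadm1, Cadm2 and Cadm3 entered only through NSC and therefore had to be lower. Nectin2 rose from 16.0 and 17.6 FPKM to 49.2, 45.1 and 47.8 FPKM (1.45 ± 0.066, adjusted p = 2.3e-06). Cadm4 fell from 212 and 155 FPKM to 6.42, 5.19 and 6.07 FPKM (-4.73 ± 0.15, adjusted p = 3.7e-07). Cadm1, at 21.5 and 22.9 FPKM in NSC, was listed at 0 in STO (adjusted p = 6.7e-09), and Cadm2 fell to at most 0.0335 FPKM (-2.76 ± 0.043, adjusted p = 1.8e-08).

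Desmosomes, the other cadherin-based junction, left little RNA: of 11 genes, 2 reached the filter and both rose in STO, to 2.11, 2.17 and 2.04 FPKM for Pkp3, listed at 0 in NSC, and to 1.21, 0.883 and 1.15 FPKM for Pkp2 (0.68 ± 0.077, adjusted p = 0.00022). Both entered only through STO and therefore had to come out higher. The desmosomal cadherins themselves did not reach 1 FPKM; Dsc1, Dsc2, Dsc3 and Dsg2 had values in both NSC samples, up to 0.762 FPKM for Dsc2, and were listed at 0 in STO. Of the proteases that mature or shed cadherins, 3 of 9 tested rose and 4 fell, and 1 more listed gene was not analysed here. Among all genes tested, 41.9% were higher and 43.7% lower in STO. Pcsk6 entered only through NSC and therefore had to be lower. Furin, which removes the prodomain of classical cadherins, rose from 11.2 and 9.48 FPKM to 40.3, 39.4 and 34.8 FPKM (1.79 ± 0.093, adjusted p = 4.4e-06). Psen2 rose by 0.63 (adjusted p = 4.8e-05) and the summed level of Adam15 by 0.24 (adjusted p = 0.0066). For Adam15 the most abundant transcript alone was listed at 0 in NSC and higher in STO (adjusted p = 1.2e-06), the authors' software having assigned each cell type's fragments to a different transcript. Pcsk6 was at 2.71 and 2.79 FPKM in NSC and listed at 0 in STO (adjusted p = 6.3e-08), and of the γ-secretase subunits Psenen fell by 0.99 (adjusted p = 8.3e-05) and Ncstn by 0.24 (adjusted p = 0.003, or 0.18 after rescaling to the same total).

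Of 6 genes for repressors known to bind E-boxes of the E-cadherin promoter, 4 were higher in STO and 1 lower, with a median log2(FPKM + 1) difference of 4.28 beside -0.02 over all genes tested, of which 41.9% were higher. The 4, Twist1, Twist2, Snai1 and Snai2, entered the test only through STO, so the filter fixed their direction and with it the median. Twist2 was listed at 0 in NSC and was at 104, 95.2 and 96.8 FPKM in STO (adjusted p = 5.1e-09), and Twist1 rose from 0.137 and 0.303 FPKM to 60.3, 54.1 and 57.1 FPKM (5.58 ± 0.081, adjusted p = 1.4e-08). Snai1 was at 0.0393 and 0.0179 FPKM in NSC and at 20.9, 21.6 and 22.0 FPKM in STO (4.45 ± 0.053, adjusted p = 7.9e-09), and Snai2, listed at 0 in NSC, was at 15.6, 16.7 and 16.4 FPKM in STO (adjusted p = 1.1e-08). In each of these 4 genes every STO sample lay far above NSC.

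Zeb1 went the other way, from 137 and 138 FPKM in NSC to 17.5, 19.0 and 18.0 FPKM in STO (-2.85 ± 0.054, adjusted p = 4.1e-08). Zeb2 was at 14.0 FPKM in both NSC samples and at 11.9, 14.1 and 11.9 FPKM in STO, with overlapping samples and a difference of -0.14 (95% interval -0.34 to 0.07, adjusted p = 0.16) whose direction turned on rescaling to the same total. Without STO replicate 2 it passed as lower in STO (-0.22, adjusted p = 0.017), and its most abundant transcript alone passed as higher (0.87, adjusted p = 0.024). Each cell type therefore held high RNA of some of these repressors. Cdh1 was at 0.223 FPKM or less in every sample, and a link between the repressors and Cdh1 was not tested.

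**Figure D5:**
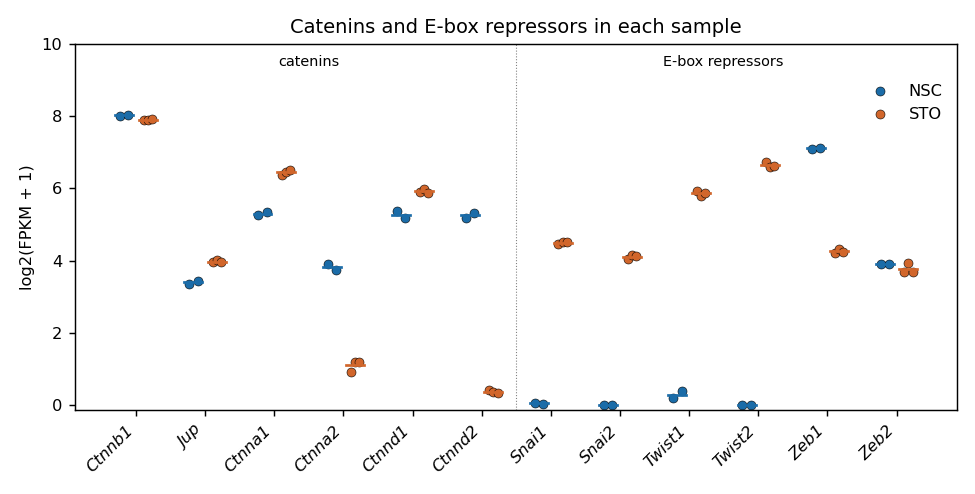
Level of 6 catenin genes and 6 E-box repressor genes as log2(FPKM + 1) (vertical axis) in 2 NSC samples (blue) and 3 STO samples (orange); each point is a sample and each bar the mean of its group. Ctnnb1 lies near 8 in both cell types, Ctnna2 and Ctnnd2 are higher in NSC, and Snai1, Snai2, Twist1 and Twist2 are higher in STO while Zeb1 is higher in NSC.

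The genes most like the leading cadherin of each cell type were found by the distance of log2(FPKM + 1) over the 5 samples. Those nearest to Cdh13 were Epdr1 and Dhcr7 (both 0.188), Tnfrsf21 (0.330), Sec11c (0.486) and Chst11 (0.583). Those nearest to Cdh11 were Gas7 (0.092), Acsl4 (0.225), Pdk3 (0.240), Sord (0.246) and Cyth3 (0.248). With 2 cell types, such likeness amounts to a similar level in each, and no other cadherin was among the 5 nearest of either.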

How the data were processed

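RNA-seq was analysed in 2 NSC and 3 STO samples. The authors prepared stranded mRNA libraries, sequenced read pairs of 150 bases, aligned them to mm9 with HISAT2 (4.8.2 per the submitters' processing notes) and computed the deposited FPKM and their 95% intervals with Cufflinks 2.2.1. FPKM of transcripts were summed by gene symbol (39951 of 40201 transcripts, 99.4%, were matched). Counts were not used here. Fragments behind a value were taken from the interval, as 4 times the squared ratio of the value to the distance of its upper bound. For transcripts of genes with 1 transcript and few fragments, 89.9% to 92.6% came out within 0.1 of a whole number. The conversion was not checked for genes with more transcripts, which also enter the totals of each sample. The fragments cover counting error only. FPKM were compared with limma 3.58.1 (R 4.3.3) on log2(FPKM + 1) with an intensity trend, for genes with a mean of at least 1 FPKM in either cell type. This scale understates changes of low genes. Named were all 10 cadherins, 12 catenin and repressor genes, other cadherins past the filter, and up to 3 genes in each direction from each list with adjusted p under 0.05 and groups that did not overlap. Cadherins and lists were chosen with earlier results of these data known. Locus starts were converted to 1-based positions. Samples were grouped by their labels.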

Additional observations from a re-analysis of the deposited data

How the results depend on the processing

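All 83 alternative values of the 6 cadherins tested kept their direction and passed the threshold, over other pseudocounts, filters, scalings and fits and leaving out each sample. For Cdh4, Cdh6 and Cdh10 the direction could not turn, since they entered only through NSC and lay at or near 0 in STO. Only Cdh2, Cdh11 and Cdh13 could have changed direction. The differences ranged from -1.54 to -1.35 for Cdh2, -8.33 to -4.91 for Cdh4, -5.55 to -2.34 for Cdh6, -6.22 to -2.96 for Cdh10, 2.27 to 2.52 for Cdh11 and -3.07 to -2.86 for Cdh13. The lowest values of Cdh4, Cdh6 and Cdh10 came with a pseudocount of 0.1, so the size of these differences depends on the pseudocount. The count of cadherins lower in STO stayed at 5, except for 4 with a mean of at least 5 FPKM, and that of cadherins higher rose from 1 to 3 with no filter. Over all genes, requiring a log2 difference of at least 1 left 2103 of 5153 higher and 2617 of 5375 lower. Leaving out each sample gave 4704 to 5065 genes higher and 4900 to 5253 lower, with 1 and 5 cadherins; where a single NSC sample remained it was assumed to vary like STO. Rescaling each sample to the same total FPKM moved the median of all genes by 0.15 on the log2 scale, and Cdh2 and Cdh11 then differed by -1.35 and 2.52. Signs turned for Ctnnb1 when rescaled (0.06) and quantile normalized (0.02), for Zeb2 when rescaled (0.02), and, for the most abundant transcript, for Zeb2 (0.87) and Ctnnd1 (-0.70); the cause was not tested. Samples of both groups share replicate numbers that are not stated to pair them. Deviations from the group mean correlated at 0.0075 and 0.061 between same-numbered samples, and with a replicate block 4994 genes were higher, 5252 lower, and 1 and 5 cadherins. Depth limits Cdh15 and the STO values of Cdh6, which rested on 3 fragments or fewer in each sample. It also limits Cdh3 and the STO values of Cdh4, whose intervals reached 0 in each STO sample.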
